A study of Arabidopsis thaliana with 4 samples.

Results

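The genes that encode the core histones and their variants were examined for open chromatin in seedlings of 4 natural accessions of Arabidopsis thaliana. A gene was a member when the RefSeq gene table gave it a symbol or synonym of the HTA, HTB or HTR series (H2A, H2B and H3 genes), the name HIS4, or a synonym that spells out histone H2A, H2B, H3 or H4. By this rule 22 of 27444 nuclear protein-coding genes were members: 13 H2A genes, 5 H2B genes, 3 H3 genes and 1 H4 gene. The wording leaves out 8 genes whose synonym in the table is H3.1 or H3.3, and histone genes without any such name, so the H2B, H3 and H4 families are represented only in part. The 8 genes are described apart, after the H3 members.

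Each accession gave 1 DNase I-seq library, and the groups were Bur-0 and Bay-0, with Est-1 and Tsu-1 (Tsu-0 in the series text). Seedlings were 7 days old and grew at 22°C during the 16 h light period and at 20°C during the 8 h dark period. Every plant line carried the INTACT transgenes labelled UBQ10:NTF::ACT2:birA, which tag nuclei with biotin under widely active promoters, and the labels of all 4 samples also give Col-0 as genetic background. The nuclear peak lists held 27388 peaks in Tsu-1, 29699 in Est-1, 28821 in Bay-0 and 25298 in Bur-0, and sequencing depth is unknown. As there is 1 library for each accession, differences between them lack any replicate, and p-values are not reported. In seedling tissue, fewer cells with an open site and a less open site in each cell cannot be told apart.

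Core histones H2A, H2B, H3 and H4 form the octamer around which DNA is wrapped. Canonical histones are made mainly during S phase, when new DNA must be packaged, whereas variants replace them at particular places or times. In Arabidopsis H2A.X is phosphorylated at DNA breaks, H2A.Z stands in nucleosomes at the starts and along the bodies of genes, H2A.W marks heterochromatin, and CENH3 marks centromeres.

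Most histone genes had open chromatin at their ends in every accession. A gene was counted as called in an accession when a peak overlapped, by at least 1 bp, the window that runs at each gene end from 1000 bp beyond the gene to 200 bp within it. Of the 22 genes, 19 were called in all 4 accessions, 86.4% (65.1 to 97.1), where 53.7% of all protein-coding genes were. Bounds in parentheses are 95% limits by the exact Clopper-Pearson method, which reflect counting error alone. A single histone gene was called in 1 accession, against 5.63% of all genes, and 2 were called in none, against 26.8% of all genes. Among protein-coding genes of up to 2000 bp, a length that 21 of the 22 histone genes do not exceed, the share called in all 4 was 46.0%.

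With this window the calls differed between accessions at 1 gene, HTB1, which was called in Bur-0. Bur-0 had a peak at 20 of the 22 genes, 90.9% (70.8 to 98.9), with 59.2% of all protein-coding genes called in that list. The other 3 lists each had a peak at the same 19 genes, 86.4% (65.1 to 97.1), beside 67.1% of all genes in Bay-0, then 67.9% in Est-1 and 62.5% in Tsu-1. Counting only peaks nearest to the gene turned the order, with 15 genes in Bur-0, 17 in both Bay-0 and Est-1, and 16 in Tsu-1. Over all genes with the main window, Bur-0 likewise had the smallest share and Tsu-1 the next smallest. With the peak midpoint in the window every list had 19 histone genes. Shares by list over all genes are not given here for these other rules.

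By type, 11 of 13 H2A genes (84.6%, 54.6 to 98.1), 4 of 5 H2B genes (80%, 28.4 to 99.5), all 3 H3 genes and the 1 H4 gene were called in all 4 accessions. Within H2A, this held for all 4 canonical genes, both H2A.X genes, all 3 H2A.W genes and 2 of 4 H2A.Z genes (50%, 6.76 to 93.2). The share over all protein-coding genes was 53.7%, and that of the H2A.Z genes is near it. Counting only peaks nearest to the gene left no H2A.X gene (0 of 2) and 1 of 4 H2A.Z genes called in all 4, where 39.2% of all protein-coding genes were. Both histone genes without a call in any accession were H2A.Z genes, and 26.8% of all protein-coding genes had no call either. The intervals of all types and classes overlap, so the counts do not separate one type from another.

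**Figure D1:**
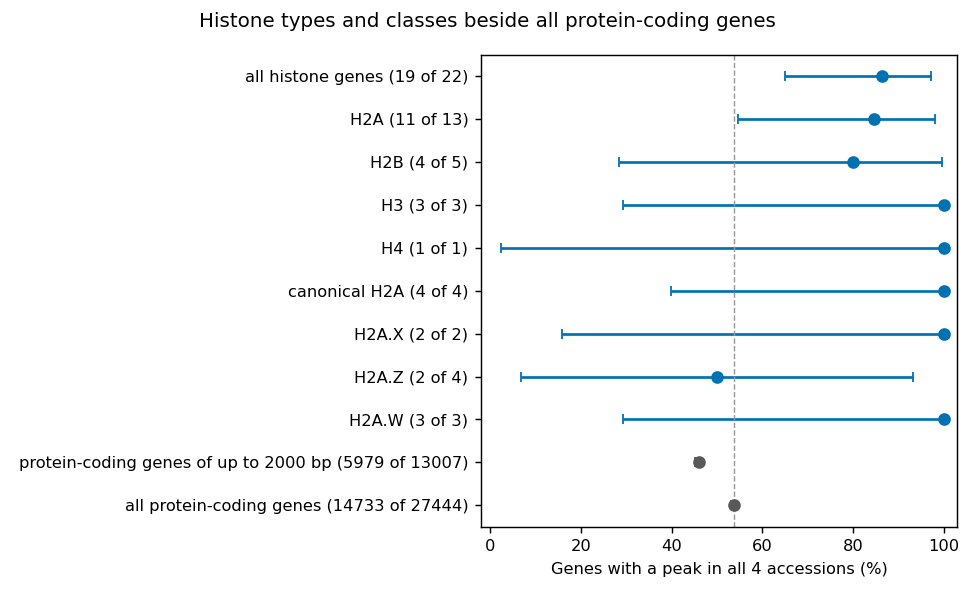
Share of genes with a peak in all 4 accessions (x axis, %) for all histone genes, the histone types and the H2A classes, beside protein-coding genes; bars are 95% exact intervals and the dashed line marks all protein-coding genes. The 19 of 22 histone genes stand at 86.4% against 53.7% of all genes, and the H2A.Z genes at 50%.

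The strength of the peaks is given here by the authors' signal value for each peak and by its rank, the percentile of that signal within its own list, with 100 at the top. Signal has no stated scaling between lists, so only ranks are set side by side. Over the histone genes with a peak, the median rank of the strongest peak was 70.7 in Bur-0, 79.4 in Bay-0, then 78.2 in Est-1 and 75.9 in Tsu-1. Over all protein-coding genes with a peak it was 52.5, 54.3, 53.6 and 53.1. A strongest peak ranking at least 80 in every list, a limit set after the values were seen, stood at 6 of the 22 histone genes and at 9.23% of all protein-coding genes. Of these histone genes, only MGH3 was the nearest gene to its strongest peak in every list. For HTA8, HTB11 and HTR11 that peak was nearest to another gene in every list. For HTA3 this was so in Bur-0 and Bay-0, and for HTA7 in Bur-0 and Tsu-1.

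**Figure D2:**
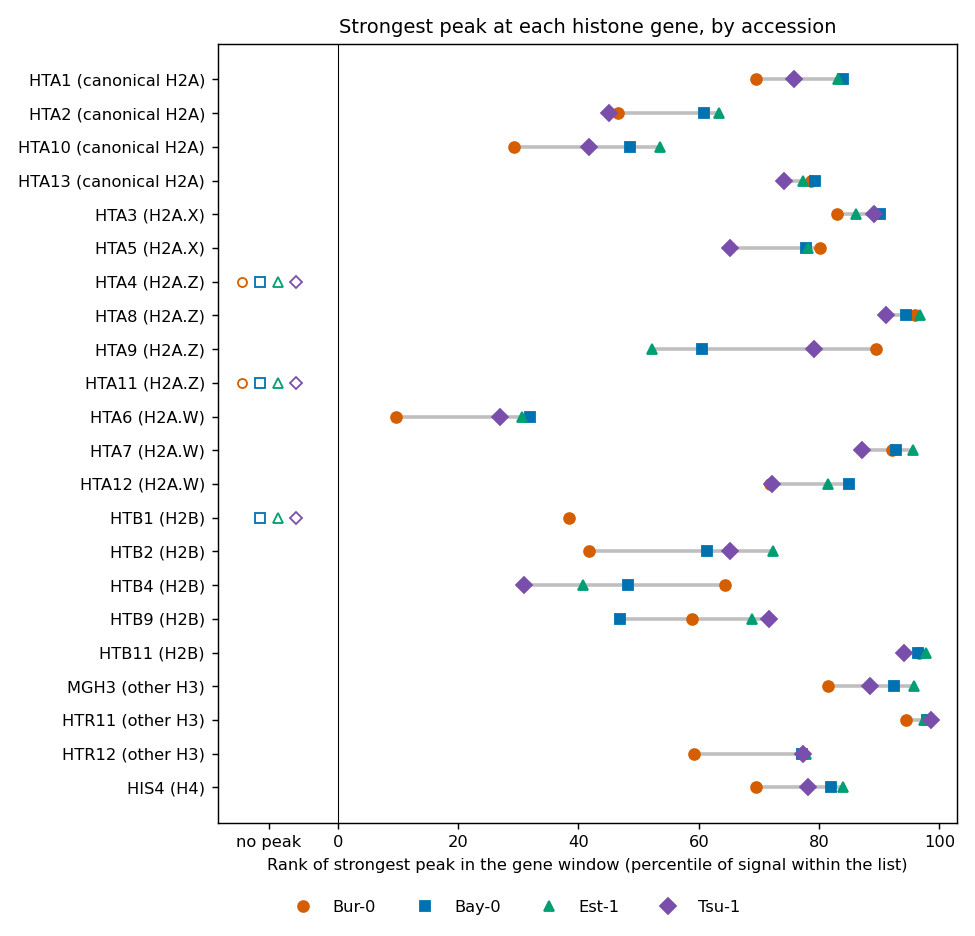
Rank of the strongest peak in the window of each histone gene (x axis, percentile of signal within a list), with 1 marker per accession; open markers at the left stand for lists without a peak. HTR11, HTB11 and HTA8 rank above 90 in every list, HTA6 lies lowest, and HTA9 has the widest span, from 52.2 in Est-1 to 89.5 in Bur-0. The strongest peaks of HTR11, HTB11 and HTA8 are nearest to another gene in every list.

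Gene coordinates are those of TAIR10, counted from 1. The canonical H2A genes supply the bulk of H2A in nucleosomes. HTA1 (RAT5, AT5G54640, chromosome 5, 22196287 to 22197492), which plants need for efficient transformation by Agrobacterium, had 2 regions at its lower-coordinate end in all 4 lists. A region joins the peaks of the 4 lists that touch or overlap each other. Its strongest peak had a signal of 180 in Bur-0, 299 in Bay-0, then 336 in Est-1 and 178 in Tsu-1, with ranks of 69.5, 83.9, 83.2 and 75.9. In Bur-0 the stronger peak was the outer one, centred 572 bp from the gene, and in the other 3 lists it was the one centred 8 bp inside the gene end.

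HTA13 (AT3G20670, chromosome 3, 7229390 to 7230146) had the steadiest canonical peak. Its strongest peak lay at exactly the same position in all 4 lists, 135 bp from the gene, and ranked 78.6 in Bur-0, 79.4 in Bay-0, then 77.4 in Est-1 and 74.1 in Tsu-1. A second, outer region was called in Bur-0 and Bay-0 only, with ranks of 35.7 and 33.7, inside the neighbouring gene OCT4.

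HTA2 and HTA10 were weaker. HTA2 (AT4G27230, chromosome 4, 13637236 to 13638449) ranked 46.5 in Bur-0, 60.9 in Bay-0, then 63.4 in Est-1 and 45.0 in Tsu-1, from a peak centred 107 to 147 bp beyond its higher-coordinate end. It also had weak outer peaks called in 1 list each, at rank 1.8 in Bur-0 and 9.5 in Bay-0. HTA10 (AT1G51060, chromosome 1, 18926811 to 18927746) carried a region at each end, both called in all 4 lists. Its best rank was 29.2 in Bur-0, 48.5 in Bay-0, then 53.6 in Est-1 and 41.8 in Tsu-1, with the end at the lower coordinate stronger in Est-1 and the other end stronger elsewhere.

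Both H2A.X genes, whose product is phosphorylated at DNA breaks, were called everywhere. HTA3 (GAMMA-H2AX, AT1G54690, chromosome 1, 20414316 to 20415287) had 1 region, centred 289 bp beyond its higher-coordinate end in the gap before AT1G54700, to which the peak was slightly nearer in Bur-0 and Bay-0. It had a signal of 242 in Bur-0, 359 in Bay-0, then 363 in Est-1 and 254 in Tsu-1, with ranks of 83.0, 90.1, 86.1 and 89.1; none of the lists ranked it below 83.0. HTA5 (H2AXA, AT1G08880, chromosome 1, 2846894 to 2848100) had ranks of 80.2, 77.8, 78.2 and 65.2 in the same order. Its peak was centred 116 bp outside the gene in Bur-0 and Est-1, within AT1G08890, and 16 bp outside in Bay-0 and Tsu-1.

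Of the 4 H2A.Z genes, 2 were called in every list and 2 in none, beside 53.7% and 26.8% of all protein-coding genes. HTA8 (AT2G38810, chromosome 2, 16219220 to 16220928) had a signal of 413 in Bur-0, 425 in Bay-0, then 555 in Est-1 and 274 in Tsu-1, at ranks of 96.0, 94.4, 96.8 and 91.2. That region was centred 598 bp from HTA8 and 290 bp from AT2G38820, the nearer gene. The region next to HTA8 itself, centred 98 bp from the gene, ranked 52.5, 73.4, 64.2 and 71.9.

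HTA9 (AT1G52740, chromosome 1, 19645236 to 19646485) differed most in rank between lists among the 19 genes called in all 4. Its only peak, at the lower-coordinate end, had a signal of 295 in Bur-0, 185 in Bay-0, then 178 in Est-1 and 192 in Tsu-1. It ranked at 89.5, 60.6, 52.2 and 79.1, highest in Bur-0 and lowest in Est-1. The gap to AT1G52730 is 24 bp there, and the peak midpoint fell inside that gene in Bur-0, 5 bp from it in Tsu-1, and inside HTA9 in Bay-0 and Est-1.

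HTA4 (AT4G13570, chromosome 4, 7884516 to 7885982) and HTA11 (AT3G54560, chromosome 3, 20196140 to 20197726) lacked a peak in all of the lists. From HTA4 the closest peak was 17866 bp away in Bur-0, 17906 bp in Bay-0, then 6686 bp in Est-1 and 7719 bp in Tsu-1. From HTA11 it was 16890 bp in Bur-0, 6330 bp in both Bay-0 and Est-1, and 15850 bp in Tsu-1. Both genes thus stood in stretches without any call, and 6.02% of all protein-coding genes likewise had no peak within 6000 bp in any list, a distance set after these values were seen. No source used here gives how reads that match several places were handled, and whether this or sequence that differs from the reference plays a part was not tested.

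The 3 H2A.W genes, which supply the heterochromatin variant, spanned nearly the whole scale. HTA7 (AT5G27670, chromosome 5, 9792509 to 9793560) had a signal of 330 in Bur-0, 396 in Bay-0, then 513 in Est-1 and 238 in Tsu-1 at its higher-coordinate end, with ranks of 92.2, 92.8, 95.6 and 87.1. A weaker region at its other end was also in all 4 lists, at ranks of 24.0 to 39.1. The gap to RECQSIM beyond the strong end is 184 bp, and in Bur-0 and Tsu-1 the peak midpoint was nearer to that gene.

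HTA12 (AT5G02560, chromosome 5, 575225 to 577216) ranked 71.9 in Bur-0, 85.0 in Bay-0, then 81.4 in Est-1 and 72.2 in Tsu-1. Its second region, at the lower-coordinate end, was absent from the Bur-0 list and ranked 22.7 in Bay-0, then 25.2 in Est-1 and 4.7 in Tsu-1. HTA6 (AT5G59870, chromosome 5, 24115354 to 24116220) had the lowest rank of the 19 genes in each list, with a signal of 71 in Bur-0, 117 in Bay-0, then 125 in Est-1 and 74 in Tsu-1. Its ranks were 9.7, 32.0, 30.6 and 27.0, lowest in Bur-0. With whole genes plus 2000 bp either way it ranked 19.4, 49.7, 54.7 and 29.4. HTB4 and HTA10 were then lower in Bay-0 and Est-1, and HTA9 was lower in Est-1, at 52.2. Within the window at gene ends, all 3 genes had their strongest peak at the higher-coordinate end.

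H2B pairs with H2A in the octamer, and its genes differed widely. HTB11 (AT3G46030, chromosome 3, 16913384 to 16914131) had a signal of 433 in Bur-0, 475 in Bay-0, then 600 in Est-1 and 310 in Tsu-1, with ranks of 96.6, 96.5, 97.8 and 94.1. This region filled part of the 393 bp gap between HTB11 and RPS15AD, a ribosomal protein gene, and was nearer to the latter in every list. HTB2 (AT5G22880, chromosome 5, 7651868 to 7652714) had its single peak at an identical position in all 4 lists, 82 bp from the gene. Its ranks were 41.8 in Bur-0, 61.4 in Bay-0, then 72.3 in Est-1 and 65.2 in Tsu-1.

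HTB4 and HTB9 showed other orders of the accessions. At HTB4 (AT5G59910, chromosome 5, 24126877 to 24128162) the strongest peak lay inside the gene, 98 bp from its lower-coordinate end, at the same position in each list. It ranked 64.4 in Bur-0, 48.2 in Bay-0, then 40.7 in Est-1 and 31.0 in Tsu-1, so Bur-0 was highest. HTB9 (AT3G45980, chromosome 3, 16897287 to 16898013) ranked 58.8, 46.9, 68.9 and 71.6 in that order of lists, lowest in Bay-0, from a peak 163 to 203 bp beyond the gene. With whole genes plus 2000 bp either way, HTB9 ranked 63.0 in Bay-0 and Bur-0 was lowest.

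HTB1 (AT1G07790, chromosome 1, 2412938 to 2413790) was called in Bur-0 alone. The Bur-0 peak had a signal of 110 and a rank of 38.5, and its midpoint lay 406 bp from HTB1, inside the neighbour AT1G07795. In the other 3 lists the closest peak to HTB1 was 2311 bp away, at the same position in each, with a rank of 9.1 in Tsu-1, 17.2 in Est-1 and 22.2 in Bay-0. When a peak had to be nearest to the gene, no list called HTB1.

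The 3 H3 members are the centromeric variant, the male gamete variant and HTR11. HTR12 (CENH3, AT1G01370, chromosome 1, 143489 to 146479), the centromeric H3, had a region at each end in all 4 lists. The stronger one lay inside the gene, 83 bp from the higher-coordinate end, at the same position throughout, with a signal of 150 in Bur-0, 254 in Bay-0, then 294 in Est-1 and 184 in Tsu-1. Its ranks were 59.2, 77.1, 77.9 and 77.3, lowest in Bur-0 and within 1 point of each other in the remaining lists. The region at the other end ranked 39.1, 21.1, 33.9 and 10.1, highest in Bur-0.

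MGH3 (AT1G19890, chromosome 1, 6904963 to 6906028), an H3 variant of the male gametes, was called in every list. Its region centred 208 bp from the lower-coordinate end had a signal of 232 in Bur-0, 389 in Bay-0, then 519 in Est-1 and 249 in Tsu-1. It ranked at 81.4, 92.4, 95.8 and 88.5. A second region, centred 698 bp away and nearer to AT1G19880, ranked 63.3, 63.8, 58.3 and 70.5. A peak is no measure of transcription, and no RNA was measured here.

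HTR11 (AT5G65350, chromosome 5, 26119211 to 26119825) had the highest lowest rank of all members, 94.5, but from a peak at the very edge of its window. That peak ranked 94.5 in Bur-0, 98.0 in Bay-0, then 97.5 in Est-1 and 98.6 in Tsu-1, and its midpoint lay 1011 to 1071 bp from HTR11. Between them stands AT5G65360, itself named H3.1 in the table, and the peak is nearest to that gene. The peak nearest to HTR11 itself, on its other side, was absent in Bur-0 and ranked 5.2 in Bay-0, then 43.9 in Est-1 and 5.6 in Tsu-1. Where the peak midpoint or at least 50% of the peak had to lie in the window, HTR11 was no longer called in Bur-0, and 18 of the 22 genes were called in all 4, where 52.4% and 52.5% of all protein-coding genes were.

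The 8 genes that the table names H3.1 (5 genes) or H3.3 (3 genes) were called in all 4 accessions without exception. H3.1 is the canonical H3 laid down behind replication forks, and H3.3 replaces it outside replication, mainly in transcribed genes. Together with the 22 members, 27 of 30 genes (90%, 73.5 to 97.9) were called in all 4, where 53.7% of all protein-coding genes were. This count was added after the data were seen. Its interval treats the genes as separate, although HTR11 and AT5G65360 have the same strongest peak in every list. AT5G10390 and AT5G10400, whose windows overlap, also have equal best ranks in Bay-0 (49.3) and Tsu-1 (49.0).

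Among the H3.1 genes, AT5G65360 holds the strong peak near HTR11, at 94.5 to 98.6. AT1G09200 ranked 76.8 in Bur-0, 81.4 in Bay-0 and 87.1 in Tsu-1, but 29.8 in Est-1, the lowest of its 4 ranks. The neighbours AT5G10390 and AT5G10400 lie close enough for their windows to overlap, and ranked 19.4 and 21.6 in Bur-0 and from 49.0 to 59.7 elsewhere. AT3G27360 ranked 54.7 to 68.6, from peaks nearest to another gene in every list.

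Among the H3.3 genes, AT5G10980 ranked from 71.6 to 83.7. AT4G40040 ranked 81.2 in Bur-0 and 51.6 to 60.2 elsewhere, and its neighbour AT4G40030, whose window overlaps its own, ranked lowest of the H3.3 genes in each list, at 17.4 to 26.0.

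HIS4 (AT2G28740, chromosome 2, 12329345 to 12330059), the H4 gene that the table names, was open at both ends in every list. Its lower-coordinate end had a signal of 180 in Bur-0, 216 in Bay-0, then 263 in Est-1 and 188 in Tsu-1, with ranks of 69.5, 69.2, 72.8 and 78.2. At the higher-coordinate end the ranks were 55.8, 82.0, 84.0 and 76.9. In Bur-0 and, by 188 against 182 in signal, in Tsu-1 the lower end was the stronger, and in Bay-0 and Est-1 the higher end.

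**Figure D3:**
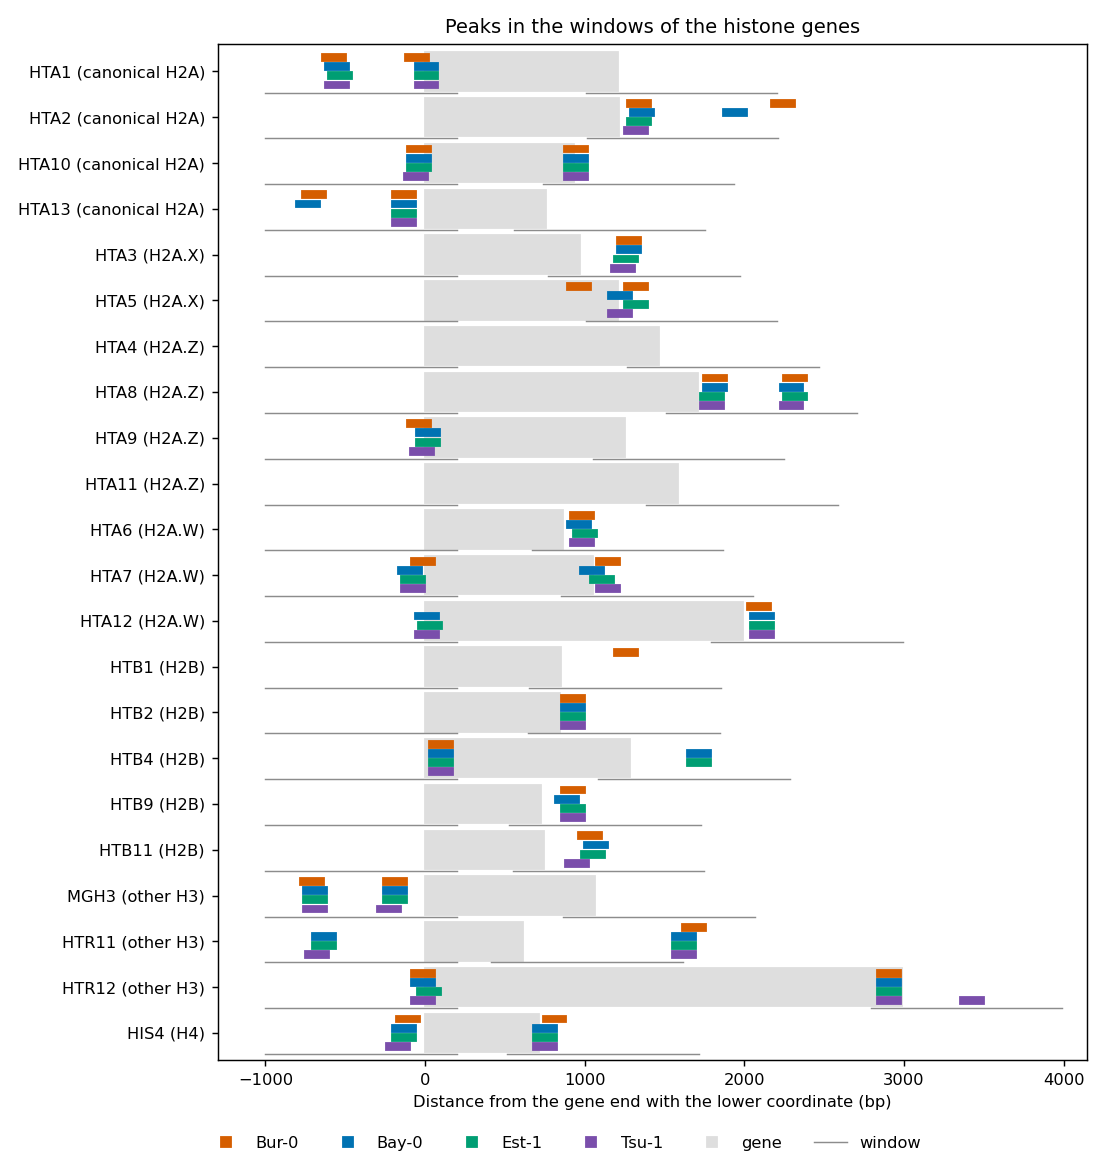
Position of every peak in the windows of the histone genes, in bp from the gene end with the lower coordinate (x axis); grey boxes are genes, thin lines the windows, and coloured bars the peaks of each accession, to scale. Peaks of the 4 lists stack at the same gene end for 19 genes, HTB1 has 1 Bur-0 peak, and HTA4 and HTA11 have none.

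Across the members, the windows held 35 regions, and 26 of them, 74.3% (56.7 to 87.5), were called in all 4 accessions. Over the windows of all protein-coding genes this share was 55.6%. Of the other regions, 2 were in 3 lists (5.71%, against 15.5% at all genes) and 2 in 2 lists (5.71%, against 12.4%). The 5 in 1 list (14.3%) were near the 16.5% at all genes. The strongest peaks of the 26 shared regions lay within 40 bp of each other in 17 cases and at most 120 bp apart. Small distances follow largely from the definition of a region, which joins touching or overlapping peaks, and 99.9% of peaks were 150 bp wide. The same distances over all genes are not given here. Of the 19 genes called everywhere, 7 had 2 regions in all 4 lists (HTA1, HTA7, HTA8, HTA10, HTR12, MGH3 and HIS4) and 12 had 1. For HTA8 and MGH3, 1 of the 2 regions was nearest to another gene. The share of all protein-coding genes with 2 such regions is not given here, so whether histone genes differ in this was not tested.

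**Figure D4:**
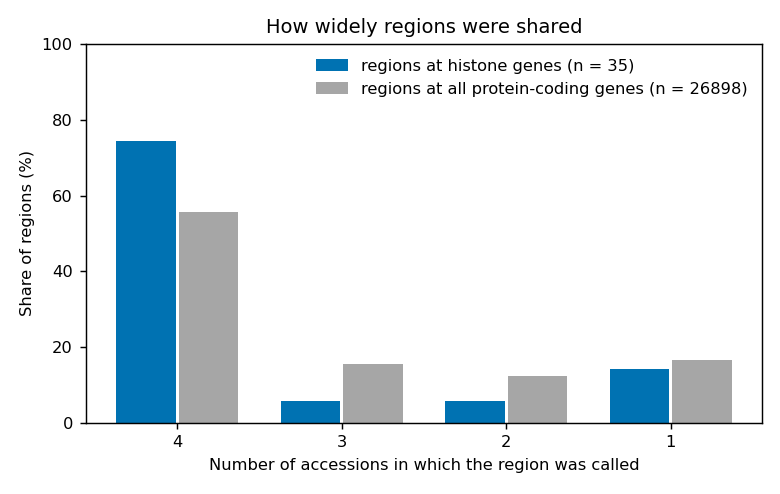
Share of regions (y axis, %) by the number of accessions that called them (x axis), for regions in the windows of histone genes and of all protein-coding genes. At histone genes 74.3% of 35 regions were in all 4 lists, against 55.6% of 26898 regions at all genes.

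Regions called in 1 to 3 accessions ranked at most 49.6 in the lists that held them. Bur-0 lacked 2 of the 28 regions that the other 3 lists held, at HTA12 and HTR11, and no other list lacked a region that the remaining 3 held. At all protein-coding genes the share lacking was 13.1% in Bur-0, 3.04% in Bay-0, then 3.43% in Est-1 and 5.70% in Tsu-1. Regions in a single list were 3 in Bur-0 (at HTA2, HTA5 and HTB1), 1 in Bay-0 (HTA2) and 1 in Tsu-1 (HTR12). They ranked 1.8, 49.6, 38.5, 9.5 and 7.4, and the split of such regions by accession over all genes is not given here. By pairs, 88.1 to 88.5% of the peaks at histone genes were shared between Bur-0 and each other list, and 93.3 to 96.7% between the other lists. Over the peaks at all genes, these shares were 80.2 to 82.1% and 84.9 to 86.8%.

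Bur-0 had the lowest rank of the 4 lists at 10 of the 19 genes (52.6%, against 45.1% of all genes called in 4 lists) and Tsu-1 at 7 (36.8%, against 29.1%). Bay-0 and Est-1 were lowest at 1 gene each (5.26%), against 11.9% and 14% of all genes. Est-1 had the highest rank at 9 genes (47.4%, against 33.0%). The lists differ in length, which shifts percentiles. When all lists were shortened to 25298 peaks by signal and ranks recomputed, Bur-0 was lowest at 9 of 19 genes (47.4%, against 33.0%), Tsu-1 at 8 (42.1%, against 28.1%), and Est-1 highest at 8 (42.1%, against 25.0%). The rank span between lists had a median of 14.5 at histone genes and 17.2 at all genes. It exceeded 20, a limit set after the values were seen, at 6 histone genes, HTA9, HTB4, HTB2, HTB9, HTA10 and HTA6 (31.6%), and at 41.4% of all genes. At equal length it did so at 4 of 19, HTA9, HTB4, HTB2 and HTB9 (21.1%, against 41.0%). In the full lists Bur-0 ranked highest at 3 of the 19 genes, HTA9, HTB4 and HTA5 (15.8%, against 19.5% of all genes). At equal length it ranked highest at 4, these and HTA13 (21.1%, against 28.8%).

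Histone genes stood closer to their neighbours than genes at large. The space to the neighbours, summed over both sides, had a median of 868 bp for histone genes and 1856 bp for all genes. The midpoint of the strongest peak was at most 400 bp outside the gene at 12 to 14 genes per list (63.2 to 73.7%), where 50.3 to 51.2% of all called genes had it there. It was more than 400 bp outside at 10.5 to 20.0% of the histone genes and 32.9 to 34.4% of all genes. The gene table carries neither strand nor exons, so starts and ends of genes, and exons and introns, were not told apart.

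Because the spaces are short, not every peak in a window need belong to the histone gene. Of 119 peaks in the windows, 84 (70.6%) had the histone gene as their nearest protein-coding gene. The strongest peak was nearest to the histone gene in all 4 lists for 12 of the 19 genes, and nearest to another gene in all 4 lists for HTA8, HTB11 and HTR11. Neither share is given here over all protein-coding genes, so whether histone genes differ in this was not tested. With only peaks nearest to the gene, 13 of 22 were called in all 4 accessions, where 39.2% of all protein-coding genes were.

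Genes that handle histones or copy DNA were counted the same way; no test of a difference from the histone genes was run. Of 36 such genes found in the table, 18 (50%, 32.9 to 67.1) were called in all 4 accessions and 9 in none, near the 53.7% and 26.8% of all protein-coding genes. For chaperones and exchange factors of H2A and H2B the count was 7 of 10, with the NAP1-related chaperone NRP2 ranking between 95 and 96.8 and NAP1;1 from 85.1 to 92.8. DDM1, the remodeller needed to keep transposons silent, ranked 81.4 in Bur-0, 73.4 in Bay-0, then 62.8 in Est-1 and 68.1 in Tsu-1. SSRP1, of the FACT complex, and ARP6, of the complex that deposits H2A.Z, had no peak in any list, and NAP1;2 had none in Bur-0. PIE1, the ATPase of the same H2A.Z complex, was called in all 4 at ranks of 38.5 to 64.1.

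Among H3 and H4 chaperones 2 of 7 were called in all 4 accessions, FAS2, a subunit of the assembly factor CAF-1, at 73.8 to 84.4, and HIRA, which loads H3 outside replication, at 29.9 in Bur-0 and 67.2 to 73.9 elsewhere. FAS1, the large CAF-1 subunit, was called in 3 lists at 65.5, 72.4 and 70.8 and not in Bur-0. ASF1A and ASF1B likewise lacked a Bur-0 call and ranked from 13.3 to 29.8 elsewhere, MSI1 lacked one in Tsu-1, and ATRX had none in any list.

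Of the genes for DNA replication, 6 of 14 were called in all 4 accessions. TSO2, the small subunit of ribonucleotide reductase, ranked from 91.9 to 96.9 and the licensing factor gene CDC6 from 81.4 to 96.8. The others of the 6 ranked lower: MCM7 from 61.8 to 92.9, CDT1A from 56.7 to 76.0, MCM3 from 9.7 to 43.9 and ICU2 from 3.8 to 46.9. PCNA1, MCM5, ORC1A and ETG1 had no peak in any list. PCNA2 and MCM2 lacked a Bur-0 call, and MCM6 and RNR1 were called in Bay-0 and Est-1 only. Of 5 regulators of the E2F pathway, which drives S phase genes, DPA (92.1 to 95.1), E2FC (38.5 to 69.4) and RBR1 (27.0 to 58.1) were called in all 4, and E2FB and DPB in none. The genes named in the line label ranked higher than any histone gene's lowest rank, UBQ10 at 99.5 or more and ACT2 at 96.2 or more. Within single lists, HTR11 ranked above ACT2 in Bay-0 (98.0 against 97.4), Est-1 (97.5 against 96.7) and Tsu-1 (98.6 against 96.2). HTB11 and HTA8 also did so in Est-1, and in Bur-0 ACT2 ranked above every histone gene. Whether reads from the transgene copies of the UBQ10 and ACT2 promoters add to the ranks of UBQ10 and ACT2 was not tested.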

How the data were processed

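DNase I-seq was analysed in 4 libraries, 1 per accession, grouped by the source label. Per the labels' protocols, biotin-captured nuclei were digested with DNase I (45 units, 25°C, 3 minutes) before sequencing of short fragments. Per the submitters' processing notes, the authors used Bowtie 0.12.7 and the build TAIR10. The program that called peaks and its threshold are stated by no source used here. The authors' deposited signal holds whole numbers whose scaling is not stated. The deposited −log10 p column, with a ceiling of 324, served only to break ties of signal where lists were shortened. Organelle peaks (246 to 301 per list) were left out.

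Gene names and positions came from the RefSeq table of TAIR10.1, which holds no strand and no sequence and whose nuclear chromosomes were taken as those of TAIR10. Planned work on transcription starts, promoter motifs and proteins was therefore not run. Python 3.11.15, numpy 2.4.6 and scipy 1.17.1 were used, and window calls and merging were tested on simulated data. No test across genes was made: shares have exact intervals and stand beside the same share over all protein-coding genes. Members and lists were chosen with earlier results of these data known. Class lists held 47 entries; entries to which the table gives no such name, among them 7 H4 loci, were not used, although the naming rule included them. The rule named every member called in 0 to 3 lists, the 6 with the highest lowest rank, the 6 with the widest rank span, all H3, H4 and H2A variant genes, and UBQ10 and ACT2; the remaining members were added to account for each. For other lists it named genes called in 0 to 3 lists and the 3 with the highest lowest rank, and further examples were chosen after their values were seen. NRP1 and RNR1 match 2 genes each and were fixed by locus.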

Additional observations from a re-analysis of the deposited data

How the results depend on the processing

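The count of histone genes called in all 4 accessions lay between 13 and 19 of 22 under the settings below that keep all 22 genes. It was 18 with the window of 500 bp outside to 100 bp inside (45.3% of all genes), 19 with whole genes plus 2000 bp either way (63.3%), 19 with lists of 25298 peaks each (49.9%), 19 without any 1 accession and 18 without HTR11, an alternative added after the data were seen. With the stronger 50% of each list it was 13 (25.4% of all genes), H2B genes reached 1 of 5 and canonical H2A genes 2 of 4, 4 genes were called in none (57.5% of all genes), single lists called 15 to 17, and the median rank in Bur-0 was 80.2. With peaks nearest to the gene only, 13 genes were called in all 4 and 4 in none (39.7% of all genes), single lists called 15 to 17, H2A genes reached 7, H2A.X genes 0 and H2A.Z genes 1, and median ranks were 58.8 in Bur-0, 73.4 in Bay-0 and 72.3 in Est-1. The rules of the stronger 50% and of the nearest peak drop weak or shared peaks by construction. Their shares by list and median ranks over all genes are not given here. Regions shared by all 4 made up 78.8% with peaks up to 150 bp apart merged, and 46.0% of genes of up to 2000 bp were called in all 4, both added later. Ranks of single genes moved by more than 5 points in 40 of 444 values over the 6 settings under which they can move, 15 of them with ranks recomputed in lists of equal length, another later addition. Values of genes that lost their call are not among the 444. This left 65 values with peaks nearest to the gene and 73 with the narrower window, against 77 with the wider window. In the stronger 50% ranks are those of the full list. With members restricted to names on the class lists, 18 of 21 were called in all 4, since MGH3 is not listed by that name. With the 8 genes named H3.1 or H3.3, also added later, H3 genes called in all 4 were 11 of 11. No paired analysis was possible because each accession has 1 library. Depth is unknown, so a missing call cannot be told apart from low depth.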
